A study of Mus musculus with 9 samples.

Results

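The core of insulin receptor signalling was examined as 9 genes chosen by name, Insr, Irs1, Irs2, Pik3r1, Akt1, Akt2, Tbc1d4, Sh2b2 and Foxo1, out of 32285 gene identifiers measured in each library. All 9 passed the filter on low counts (at least 5 counts in at least 3 libraries), which 17173 genes passed in all. RNA was sequenced from primary stromal vascular fraction (SVF) cells, which include preadipocytes and are what remains of fat once adipocytes are removed, taken from the subcutaneous white depot of neonatal wild-type mice. All 3 treatments gave 3 libraries each, namely 6 days of differentiation under mizoribine (MIZ), an inhibitor of IMP dehydrogenase and so of guanine nucleotide synthesis, the same 6 days under the DMSO vehicle, and no differentiation. By the study's methods, both differentiated groups received insulin, dexamethasone and IBMX and then insulin, troglitazone, rosiglitazone and triiodothyronine, so differentiation and the added hormones and drugs cannot be told apart in any comparison with undifferentiated cells. The study describes 3 biological replicates per condition. The labels number the libraries of a treatment and do not tie them to animals, so p-values measure the spread between these libraries.

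Insulin binds a receptor tyrosine kinase, which phosphorylates the IRS proteins and adaptors such as SH2B2. Phosphorylated IRS proteins recruit class I PI3K through its regulatory subunits, PI3K makes a membrane lipid that recruits AKT, and AKT phosphorylates TBC1D4 to release GLUT4 vesicles to the cell surface and FOXO1 to keep it out of the nucleus. Adipocytes are one of the main tissues in which insulin drives glucose uptake and restrains lipolysis, whereas preadipocytes respond to insulin-like growth factors largely through the related IGF1 receptor.

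Libraries held 33504937 to 43281818 counts with MIZ, 28760721 to 50262228 with vehicle and 42217231 to 55288455 in undifferentiated cells. Levels are given as CPM, the count of a gene scaled to a common library size by TMM. The labelled cell types were checked with markers. The 13 adipocyte markers summed to 2434 to 2832 CPM with MIZ, 21949 to 23101 CPM with vehicle and 719 to 809 CPM in undifferentiated cells, where Cidec and Lep were at 0. Lep was also at 0 with MIZ. It failed the filter on low counts, so fewer than 3 libraries held at least 5 counts of it. Lep therefore shows no contrast between MIZ and vehicle, and its change was not tested. The 7 smooth muscle markers summed to 6865 to 9024 CPM with MIZ, 90.8 to 125 CPM with vehicle and 743 to 883 CPM in undifferentiated cells, with none of the 7 at 0. The 12 preadipocyte and stromal markers summed to 7847 to 9877, 6371 to 7114 and 21315 to 23707 CPM in the same order of groups, with Col1a1 and Col3a1 holding most of the MIZ and vehicle sums and moving in opposite directions. With MIZ against vehicle, 5 of these 12 were higher, among them Thy1 (log2 fold change 3.14), Pdgfrb (2.69) and Pdgfra (1.25), 3 were lower, among them Lum (-2.59), and 4 were not called (edgeR). The 9 immune markers summed to 544 to 737, 365 to 622 and 1461 to 1592 CPM in that order. Mitochondrially encoded genes took 0.686% to 0.836% of counts with MIZ, 3.82% to 5.002% with vehicle and 0.837% to 0.891% in undifferentiated cells. These shifts run alongside every result below and their part in it was not tested. In bulk RNA, fewer cells of a type and less RNA per cell cannot be told apart. Vehicle replicate 1 stood furthest from its own group (chi-square per degree of freedom 28.3 and 45.2 against the other vehicle libraries, which differed from each other by 8.58). Some values of Irs1, Pik3r1 and Tbc1d4 are also given without it.

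MIZ lowered 8 of the 9 genes against vehicle, all of them over 2-fold, and raised Akt1 by less (edgeR's quasi-likelihood test, adjusted p under 0.05 over all genes tested). Over all genes tested, 71.0% were called in that comparison, 35.1% as lower and 35.9% as higher, with 16.8% lower and 16.2% higher over 2-fold. Libraries of the 2 groups did not overlap for any of the 9 genes, and over all genes 36.0% were lower and 36.8% higher without overlap. The median log2 fold change was -1.31 over the 9 genes and 0.02 over all genes.

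With vehicle, 7 of the 9 genes were higher than in undifferentiated cells, 6 of them over 2-fold, and Irs1 and Akt1 were lower over 2-fold. Irs1 and Akt1 lay near the 2-fold line, and their log2 fold changes reached -0.95 and -0.99 under alternative settings. Over all genes, 77.7% were called in this comparison, 36.2% as higher (17.2% over 2-fold) and 41.5% as lower (24.0% over 2-fold). Groups did not overlap for any of the 9 genes, against 37.3% of all genes higher and 43.4% lower without overlap, and the median was 1.69 for the 9 genes and -0.08 for all genes. With MIZ, 3 genes (Insr, Irs2 and Sh2b2) were higher than in undifferentiated cells, none of them over 2-fold, 4 were lower, with Irs1 and Tbc1d4 over 2-fold, and Akt2 and Foxo1 were not called. Over all genes, 67.0% were called in this comparison, 33.7% as higher (9.88% over 2-fold) and 33.3% as lower (16.5% over 2-fold), and 37.1% were higher and 37.3% lower without overlap. Each pair of comparisons shares 3 libraries, so they are not independent. The levels of each gene are plotted by library and its 3 changes are plotted with their intervals.

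**Figure D1:**
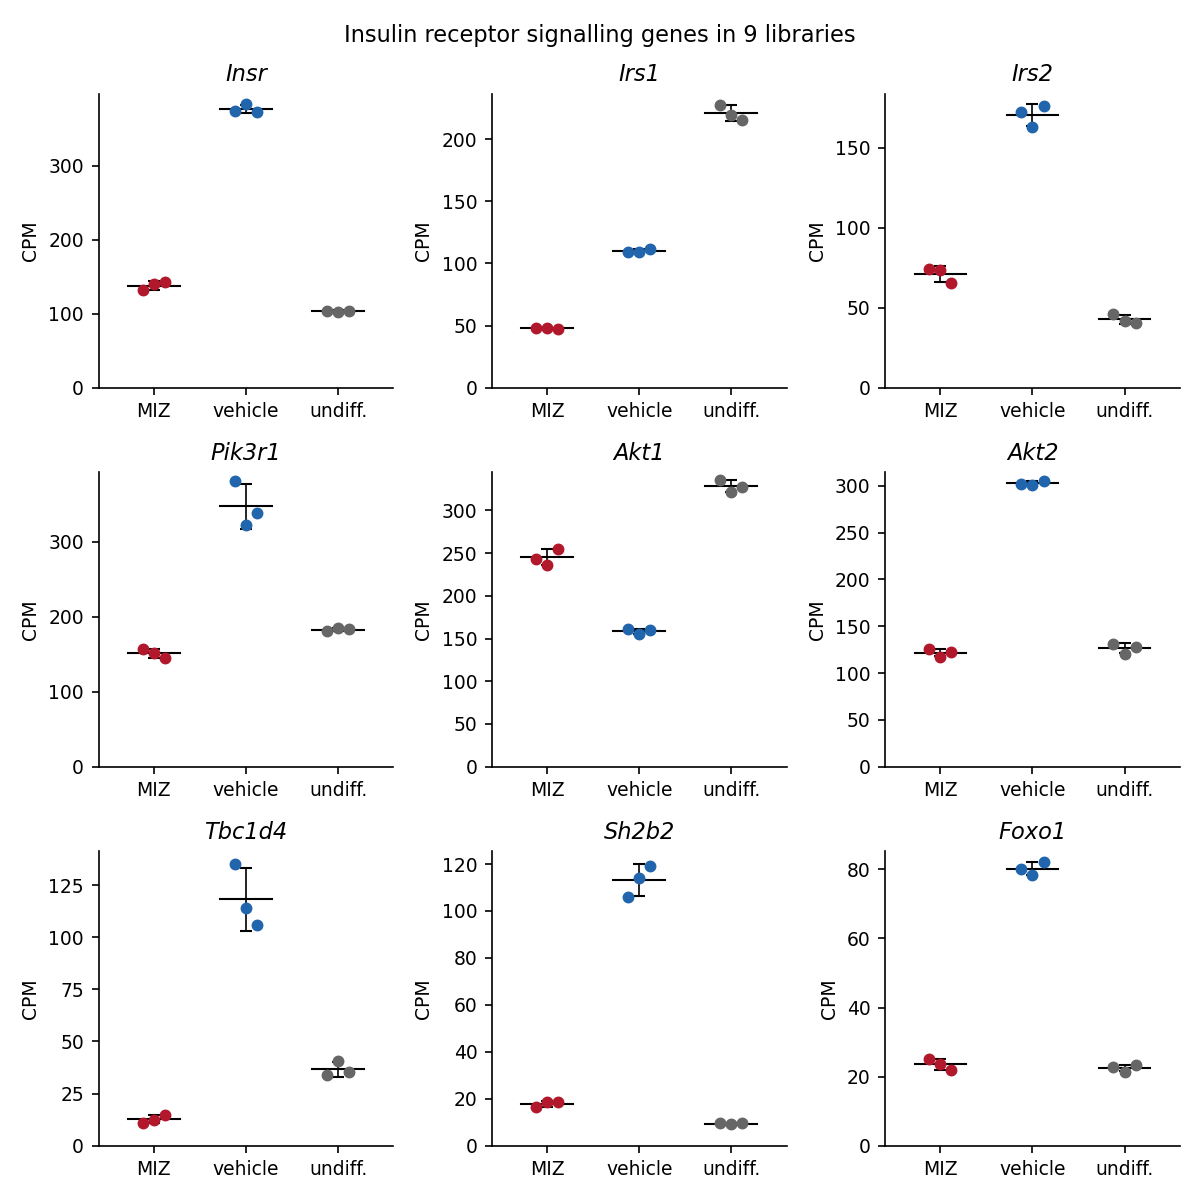
CPM of the 9 genes (y axis, linear from 0) in the 3 libraries each of MIZ-treated, vehicle-treated and undifferentiated cells (x axis). Points are libraries, long bars the mean and error bars the SD. Vehicle libraries are highest for 7 genes, whereas undifferentiated libraries are highest for Irs1 and Akt1.

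**Figure D2:**
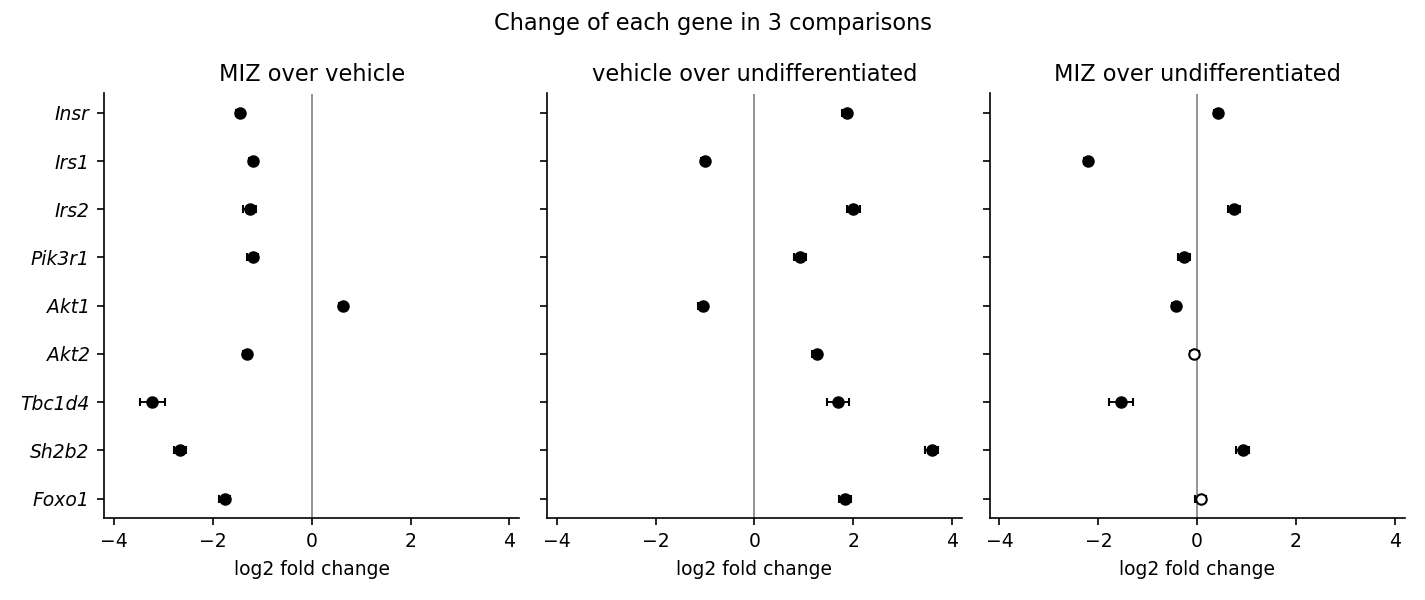
Log2 fold change of each gene (x axis) in 3 comparisons, with 95% intervals from edgeR's standard errors. Filled points passed an adjusted p of 0.05. Akt2 and Foxo1, drawn open, did not pass between MIZ-treated and undifferentiated cells.

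Insr, which encodes the insulin receptor (ENSMUSG00000005534, GRCm38 chr8:3122061-3279617, minus strand), had 132, 139.6 and 143 CPM with MIZ, 375, 384 and 373 CPM with vehicle and 104, 102 and 104 CPM in undifferentiated cells. The 3 groups did not overlap. With MIZ it fell by 1.45 on the log2 scale (edgeR, adjusted p = 2.47e-10, standard error 0.0434), and vehicle-treated cells exceeded undifferentiated cells by 1.86 (standard error 0.0439, adjusted p = 2.58e-11). MIZ-treated cells stayed above undifferentiated cells by 0.41 (standard error 0.0430, adjusted p = 7.80e-06). The related Igf1r moved the other way with MIZ against vehicle and with vehicle against undifferentiated cells, and the same way as Insr with MIZ against undifferentiated cells (log2 fold change 0.51, adjusted p = 6.55e-06 from edgeR). It had 356 ± 19.1 CPM with MIZ, 76.8 ± 3.68 CPM with vehicle and 250.1 ± 4.33 CPM in undifferentiated cells (SD, n = 3 each).

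Irs1 (ENSMUSG00000055980, chr1:82233101-82291416, minus strand) and Irs2 (ENSMUSG00000038894, chr8:10984681-11008458, minus strand) encode the 2 IRS proteins that carry most insulin signals in mouse tissues. Irs1 had 48.1, 48.3 and 47.6 CPM with MIZ, 109, 109 and 112 CPM with vehicle and 228, 219 and 215 CPM in undifferentiated cells. It was the only one of the 9 genes that was lower with MIZ than in both other groups and lower with vehicle than in undifferentiated cells. Its log2 fold changes were -1.20 with MIZ against vehicle (standard error 0.0398, adjusted p = 5.13e-10), -1.01 with vehicle against undifferentiated cells (standard error 0.0388, adjusted p = 1.09e-09) and -2.20 with MIZ against undifferentiated cells (standard error 0.0405, adjusted p = 7.23e-11, all from edgeR). The vehicle value lies at the 2-fold line and was -0.99 without vehicle replicate 1. Irs2 had 74.4, 73.6 and 65.6 CPM with MIZ, 172, 163 and 176 CPM with vehicle and 45.8, 41.7 and 40.3 CPM in undifferentiated cells. Its log2 fold changes were -1.26 with MIZ against vehicle (standard error 0.0642, adjusted p = 1.58e-08), 2.00 with vehicle against undifferentiated cells and 0.74 with MIZ against undifferentiated cells. On the opposite strand, exons of Gm9747 overlap Irs1 and those of 9530052E02Rik overlap Irs2, but these held at most 4 and 23 counts in any library, where Irs1 and Irs2 held at least 1610 and 1857.

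The start regions of both genes hold the same pair of short motifs, and they are shown as a description. Whether any motif shown bears on a change in level was not tested. Capitals mark an E-box, CACGTG, and the core of an insulin response sequence, CAAAACA or its reverse complement. Akt1, the gene that MIZ raised, and Tbc1d4, the gene it lowered most, are shown with a FOXO motif, TGTTTAC, and a C/EBP motif, TTGCNNAA. The sequences are from RefSeq (GRCm38.p6), read 5′ to 3′ on the minus strand, and all lie upstream of an annotated start.
Irs1 chr1:82291520-82291579: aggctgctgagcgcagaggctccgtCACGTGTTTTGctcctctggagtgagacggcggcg
Irs2 chr8:11008937-11008996: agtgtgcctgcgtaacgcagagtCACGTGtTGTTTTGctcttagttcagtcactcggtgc
Akt1 chr12:112675013-112675072: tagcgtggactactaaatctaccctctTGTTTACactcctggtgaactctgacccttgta
Tbc1d4 chr14:101609324-101609383: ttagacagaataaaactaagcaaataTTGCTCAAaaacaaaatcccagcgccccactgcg

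Windows of 300 bases, from 250 before to 50 after each start, were searched on both strands. Of 32851 windows, 7.15% held the E-box, 6.28% the insulin response core, 3.65% the FOXO motif and 10.8% the C/EBP motif. The E-box and the insulin response core started within 20 bases of each other in 19 windows (0.0578%), 2 of which are those of Irs1 and Irs2. This pairing was chosen after the sequences were read, and in Irs1 the 2 matches overlap. A PPAR-RXR direct repeat was found in 0.381% of windows and a glucocorticoid response element in 0.00913%, and in none of the 13 windows of the 8 genes that had one. A match is a description of letters and not of binding.

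Sh2b2 encodes an adaptor of the insulin receptor that is abundant in adipocytes (ENSMUSG00000005057, chr5:136218147-136246556, minus strand). It had 16.5, 18.6 and 18.5 CPM with MIZ, 106, 114 and 119 CPM with vehicle and 9.66, 9.17 and 9.51 CPM in undifferentiated cells. Its rise with vehicle was the largest of the 9 genes, 3.58 on the log2 scale (edgeR, adjusted p = 7.01e-12, standard error 0.0675). With MIZ it fell by 2.67 against vehicle (edgeR, adjusted p = 6.86e-11, standard error 0.0644) and was 0.92 above undifferentiated cells (standard error 0.0672).

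Pik3r1, which encodes the p85α regulatory subunit of PI3K (ENSMUSG00000041417, chr13:101680563-101768217, minus strand), had 157, 152 and 145 CPM with MIZ, 381, 323 and 339 CPM with vehicle and 180.5, 185 and 183 CPM in undifferentiated cells. Its log2 fold change was -1.20 with MIZ against vehicle (standard error 0.0611, adjusted p = 1.58e-08), or -1.13 without vehicle replicate 1, its highest library. With vehicle it was 0.93 above undifferentiated cells, and with MIZ it differed from them by -0.27 (standard error 0.0605, adjusted p = 0.00219 from edgeR).

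Akt1 and Akt2 encode the AKT kinases most associated with growth and with glucose uptake. Akt1 (ENSMUSG00000001729, chr12:112653821-112674884, minus strand) had 244, 236 and 255 CPM with MIZ, 161, 156 and 159.5 CPM with vehicle and 335, 322 and 328 CPM in undifferentiated cells. With vehicle it differed from undifferentiated cells by -1.05 on the log2 scale (edgeR, adjusted p = 2.05e-09, standard error 0.0437). MIZ-treated cells lay between the other groups, 0.63 above vehicle (standard error 0.0435, adjusted p = 2.09e-07), and differed from undifferentiated cells by -0.42 (standard error 0.0432, adjusted p = 6.96e-06, both from edgeR). Akt2 (ENSMUSG00000004056, chr7:27591552-27640826, plus strand) had 125, 118 and 122 CPM with MIZ, 302, 301 and 305 CPM with vehicle and 131, 121 and 128 CPM in undifferentiated cells. Vehicle exceeded undifferentiated cells by 1.26 (standard error 0.0454), and with MIZ Akt2 fell by 1.31 against vehicle (edgeR, adjusted p = 7.21e-10, standard error 0.0456). Against undifferentiated cells, Akt2 with MIZ differed by -0.05 (approximate 95% interval -0.14 to 0.03, adjusted p = 0.307 from edgeR), and the libraries overlapped.

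Tbc1d4, the AKT substrate that holds GLUT4 vesicles back (ENSMUSG00000033083, chr14:101442360-101609191, minus strand), had 10.8, 12.5 and 14.7 CPM with MIZ, 135, 114 and 106 CPM with vehicle and 33.7, 40.6 and 35.3 CPM in undifferentiated cells. It had the largest fall of the 9 genes with MIZ, -3.23 on the log2 scale (edgeR, adjusted p = 1.97e-09, standard error 0.127), or -3.13 without vehicle replicate 1, its highest vehicle library. Vehicle exceeded undifferentiated cells by 1.69 (standard error 0.116). With MIZ, Tbc1d4 differed from undifferentiated cells by -1.54 (standard error 0.124, adjusted p = 1.10e-06 from edgeR). Tbc1d4 and Irs1 were the genes of the 9 with over 2-fold lower levels with MIZ than in either other group. Foxo1, which encodes a transcription factor held back by AKT (ENSMUSG00000044167, chr3:52268336-52353221, plus strand), had 25.1, 23.7 and 21.9 CPM with MIZ, 80.0, 78.5 and 82.2 CPM with vehicle and 22.8, 21.4 and 23.3 CPM in undifferentiated cells. It was 1.83 higher with vehicle than in undifferentiated cells (standard error 0.0593). With MIZ it fell by 1.77 against vehicle (edgeR, adjusted p = 5.76e-10, standard error 0.0596). Its MIZ and undifferentiated levels differed by 0.07 (approximate 95% interval -0.05 to 0.19, adjusted p = 0.336 from edgeR). Gm20402 overlaps Foxo1 on the opposite strand and held at most 13 counts in a library, where Foxo1 held at least 740.

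Per length of exon (CPM per kb), Akt1 was the highest of the 9 genes with MIZ, 59.8 ± 2.29, followed by Akt2 (17.1 ± 0.551), Pik3r1 (15.02 ± 0.581), Irs2 and Insr, whose libraries overlapped, Irs1, Sh2b2, Foxo1 and Tbc1d4 (1.65 ± 0.255, SD, n = 3 each). With vehicle, Akt2 led (42.4 ± 0.276), followed by Akt1 (38.7 ± 0.699), Pik3r1 (34.5 ± 2.96), Insr and Irs2, whose libraries overlapped, Sh2b2, Tbc1d4, Irs1 and Foxo1 (9.26 ± 0.212). In undifferentiated cells, Akt1 was highest (80.1 ± 1.66), followed by Irs1 (24.1 ± 0.687), Pik3r1 and Akt2, whose libraries overlapped, Insr, Irs2, Tbc1d4, Foxo1 and Sh2b2 (1.75 ± 0.0463). Lengths count all annotated exons of a gene together (4.1 kb for Akt1 and 7.13 kb for Akt2). Close orders and shares depend on that choice, which the SDs do not cover.

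The make-up of 4 sets of related genes differed between groups, and so did their summed levels. Only the receptor sums of MIZ and vehicle libraries overlapped, and the PI3K regulatory subunit sums of vehicle and undifferentiated libraries. Of the summed level per length of Akt1 and Akt2, Akt2 made up 22.2% ± 0.593 with MIZ, 52.3% ± 0.398 with vehicle and 18.1% ± 0.358 in undifferentiated cells (SD, n = 3 each), while the sum was 76.9 ± 2.62, 81.2 ± 0.867 and 97.9 ± 2.41 CPM per kb in that order of groups. Insr was 32.2% ± 2.08 of the receptor level with MIZ, 85.4% ± 0.416 with vehicle and 33.6% ± 0.232 in undifferentiated cells, of sums of 31.3 ± 0.721, 32.2 ± 0.643 and 22.5 ± 0.325 CPM per kb. Irs2 was 67.2% ± 0.989 of the IRS level with MIZ, 61.5% ± 1.11 with vehicle and 21.5% ± 0.606 in undifferentiated cells, of sums of 16.8 ± 0.929, 43.8 ± 1.22 and 31.3 ± 1.22 CPM per kb. Irs3, an IRS gene of rodent adipocytes, was 11.1% ± 0.796 of the IRS level with vehicle and 1.44% ± 0.819 with MIZ. Pik3r1 was 50.02% ± 1.03 of the regulatory subunits with MIZ, 75.2% ± 3.14 with vehicle and 42.2% ± 1.29 in undifferentiated cells, of sums of 30.03 ± 1.41, 45.8 ± 2.08 and 43.0 ± 0.814 CPM per kb.

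**Figure D3:**
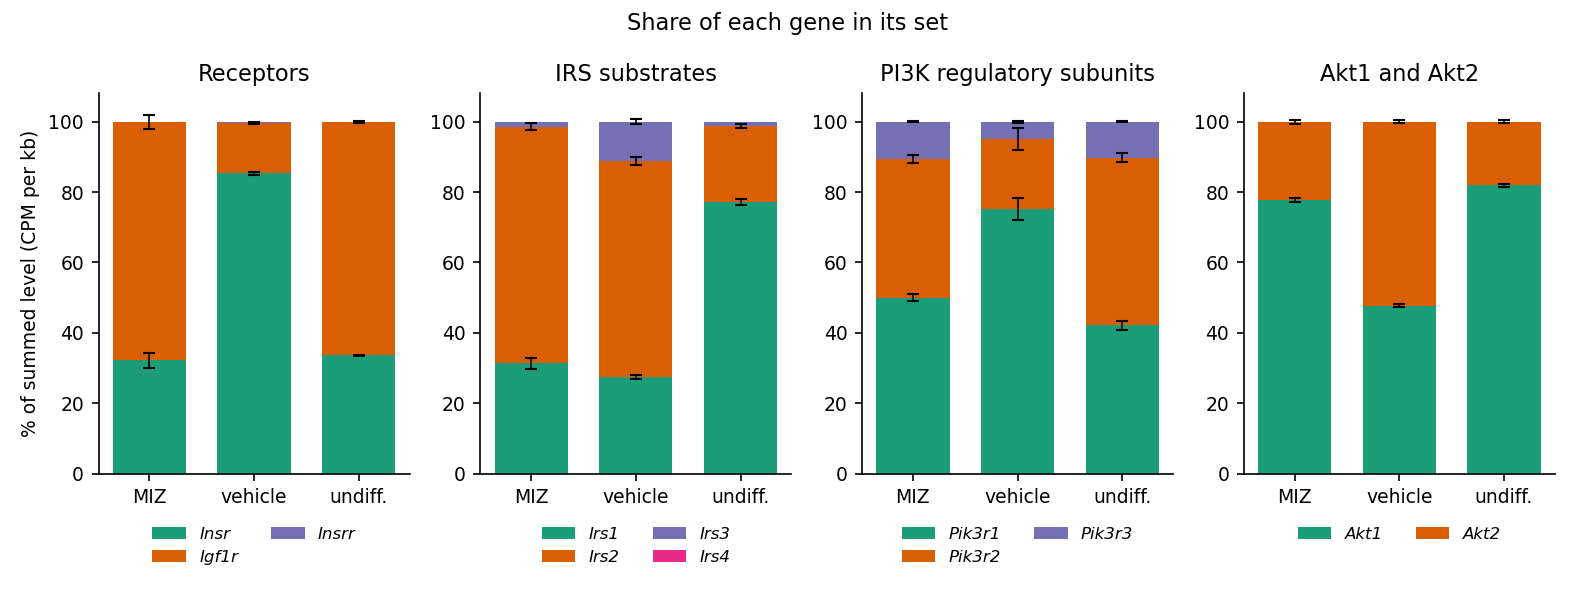
Mean share of each gene in the summed level per length of its set (percent, y axis) in MIZ-treated, vehicle-treated and undifferentiated cells (x axis), with the SD over 3 libraries at the top of each share. Per length of all annotated exons, Insr and Akt2 take most of their sets only with vehicle, whereas Irs2 takes most of its set with MIZ and with vehicle.

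Ratios of 2 genes within a library do not depend on scaling. The log2 ratio of Irs2 to Irs1 counts was 0.57 ± 0.0906 with MIZ, 0.63 ± 0.0467 with vehicle and -2.37 ± 0.0554 in undifferentiated cells (SD, n = 3 each). The MIZ and vehicle libraries overlapped and differed by -0.06 (exact two-sided permutation p = 0.4), whereas MIZ exceeded undifferentiated cells by 2.94 and vehicle did so by 3.01. The log2 ratio of Akt2 to Akt1 was -1.01 ± 0.0495 with MIZ, 0.93 ± 0.0231 with vehicle and -1.38 ± 0.0350 in undifferentiated cells, with no overlap between groups. The ratio of Insr to Igf1r was -1.37 ± 0.138 with MIZ, 2.30 ± 0.0470 with vehicle and -1.27 ± 0.0146 in undifferentiated cells, and its MIZ and undifferentiated libraries overlapped (exact permutation p = 0.4). Foxo1 over Foxo3 likewise overlapped between MIZ and undifferentiated cells, at -2.79 ± 0.0619 and -2.71 ± 0.101, against -0.45 ± 0.182 with vehicle. The ratio of Tbc1d4 to Tbc1d1, which encodes its relative, was -2.59 ± 0.106 with MIZ, 1.49 ± 0.118 with vehicle and -0.55 ± 0.0773 in undifferentiated cells. In all, 21 ratio comparisons were made, and for 3 against 3 libraries the exact test cannot go below 0.1, which gave 0.117 after Benjamini-Hochberg adjustment.

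**Figure D4:**
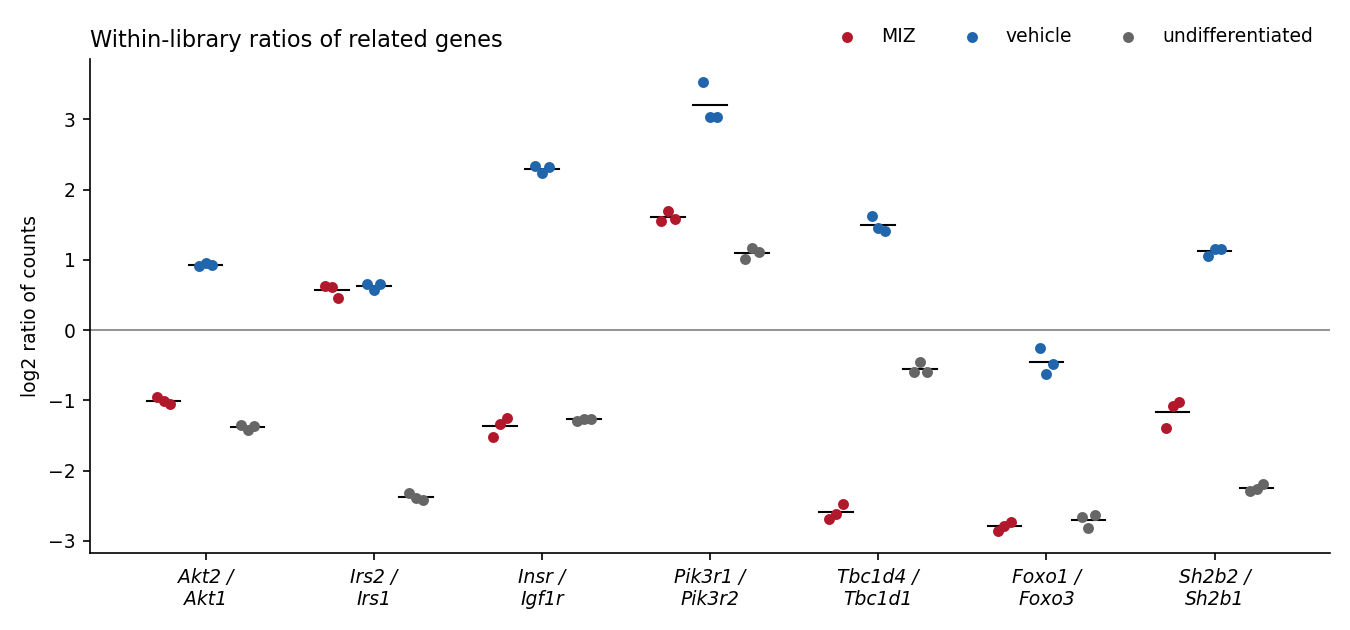
Log2 ratio of counts of 7 pairs of related genes (y axis) in each library, with MIZ, vehicle and undifferentiated side by side for each pair (x axis). Points are libraries and bars the mean. The range of Irs2 to Irs1 with MIZ overlaps that with vehicle, with MIZ replicate 3 below all vehicle values. The MIZ ranges of Insr to Igf1r and Foxo1 to Foxo3 overlap the undifferentiated ranges, though for Insr to Igf1r the MIZ values lie to either side of them.

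The wider pathway was read from 10 lists, which hold the 9 genes too and of which 124 genes were tested and 98 were called between MIZ and vehicle, where 71.0% of all genes were called, 35.9% as higher and 35.1% as lower. Among AKT effectors in metabolism and growth, 13 of 17 genes were lower with MIZ and 4 were not called, with a median log2 fold change of -0.58, against 0.02 for all genes. Pde3b, the phosphodiesterase by which insulin restrains lipolysis, had 62.9 ± 8.27 CPM with MIZ and 635 ± 58.5 CPM with vehicle (SD, n = 3 each), a log2 fold change of -3.34. Srebf1, a transcription factor of lipid synthesis, fell by 2.39 on the log2 scale. FOXO target genes, Insr and Irs2 among them, had 3 higher, 10 lower and 2 not called of 15 tested, with a median of -0.90. Pck1, which feeds glycerol synthesis in adipocytes, had 0.605 ± 0.233 CPM with MIZ and 103 ± 5.33 CPM with vehicle (log2 fold change -7.45), and Pdk4, which restrains pyruvate oxidation, had a log2 fold change of -3.50. Sesn3 and Txnip, also listed as FOXO targets, were higher with MIZ, by 0.75 and 0.50. G6pc, Igfbp1 and Trim63 of this list were not tested.

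In GLUT4 vesicle traffic, 5 genes were higher, 8 lower and 7 not called of 20, with a median log2 fold change of 0.004, against 0.02 for all genes. Slc2a4, which encodes GLUT4, had 9.02 ± 1.36 CPM with MIZ, 205 ± 9.97 CPM with vehicle and 0.170 ± 0.0330 CPM in undifferentiated cells, and fell by 4.51 on the log2 scale with MIZ (standard error 0.0968, adjusted p = 3.41e-11 from edgeR). Sort1, a sorting receptor of these vesicles, fell by 2.40, whereas Tbc1d1 and Stxbp3 rose by 0.86 and 0.52. Substrates and adaptors were split, with 9 higher, 8 lower and 1 not called of 18, and Irs4 was not tested. Grb14, which inhibits the receptor, had 19.8 ± 2.11 CPM with MIZ, 3.43 ± 0.555 CPM with vehicle and 16.4 ± 0.502 CPM in undifferentiated cells. Its log2 fold change with MIZ against vehicle was 2.50. Irs3 had 0.575 ± 0.343, 11.4 ± 0.836 and 0.897 ± 0.215 CPM in the same order of groups (-4.29 with MIZ against vehicle). Among class I PI3K subunits, 5 were higher, 2 lower and 2 not called of 9, with Pik3cd at 1.07 and Pik3cb, which encodes the p110β catalytic subunit, at -1.45. Pik3cd was low and variable with vehicle, at 5.95 ± 2.87 CPM against 11.9 ± 0.199 CPM with MIZ. In undifferentiated cells it had 65.6 ± 3.59 CPM. Among AKT kinases and their activators, 3 were higher and 7 lower of 10, with Akt1 at 0.63 and Mtor at -1.15. The 7 include Deptor (-1.67), which was listed here although it encodes an inhibitor of mTOR and not an activator of AKT. Inhibitors had 5 higher, 7 lower and 4 not called of 16, led by Grb14 and by Enpp1 at 2.36. Enpp1 had 9.94 ± 1.58 CPM with MIZ, 1.94 ± 0.245 CPM with vehicle and 18.7 ± 0.535 CPM in undifferentiated cells. In the RAS and MAPK arm, 7 were higher, 5 lower and 5 not called of 17, and none changed over 2-fold, against 16.2% of all genes higher and 16.8% lower over 2-fold. The shares called in this arm and in GLUT4 vesicle traffic were near or below the 71.0% of all genes. The changes are plotted by list.

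**Figure D5:**
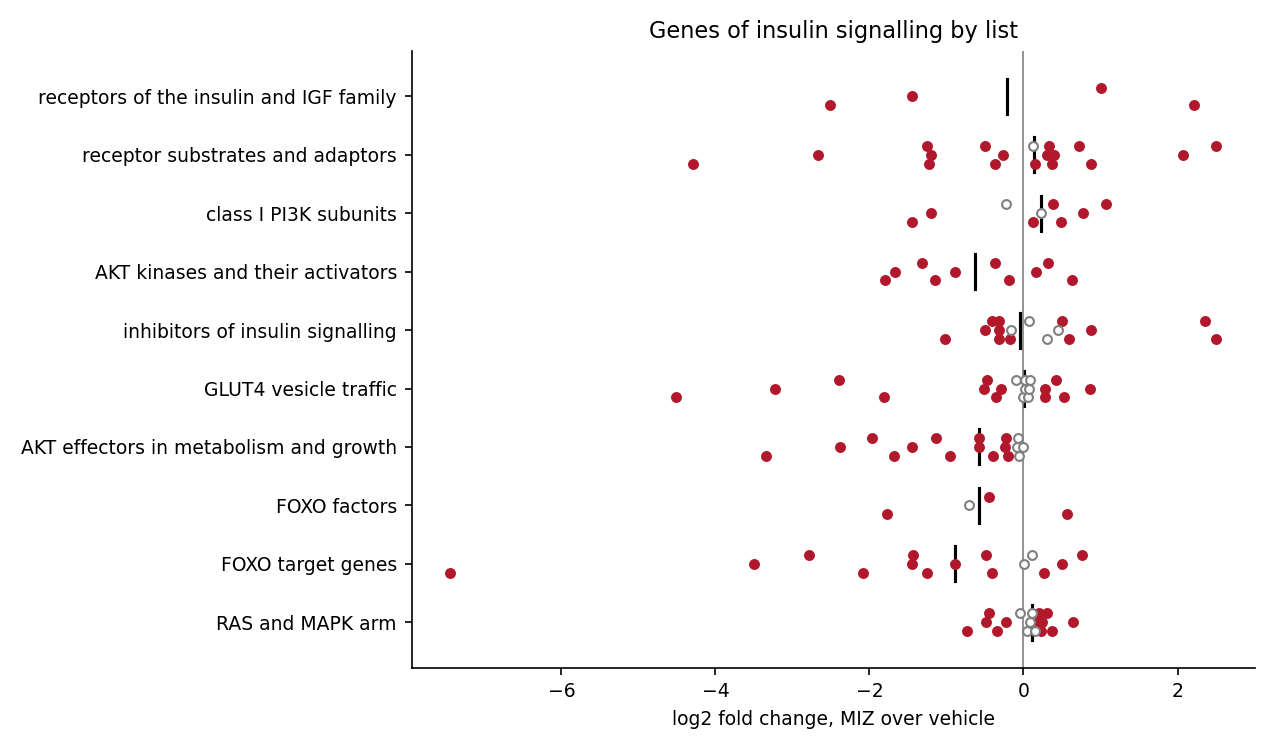
Log2 fold change of MIZ over vehicle (x axis) for each gene tested in 10 lists of insulin signalling (y axis). Filled points passed an adjusted p of 0.05, open points did not, and bars mark the median of each list. Genes of the RAS and MAPK arm lie within 2-fold, whereas Pck1, at -7.45, lies furthest left.

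Genes with patterns like those of the 9 were sought by Pearson correlation of log2 CPM over the 9 libraries among 11773 other genes. The 9 points form 3 groups, so these values mainly describe the order and spacing of 3 group means. Sh2b2 was nearest to Afg3l2 and Chchd10 (0.9998 each) and Insr to Taldo1 and Adipor2 (0.9998 each), and 536 and 560 genes exceeded 0.99 with them. Irs1 was nearest to Lum (0.9985) and Sft2d2, and Tbc1d4 to Tet3 and C2cd2 (0.9961 each), and far fewer genes, 27 and 25, exceeded 0.99 with these. Akt1 was nearest to Rasl11b and Bace1, Akt2 to Abcb6 and Dusp22, Foxo1 to Mrpl9 and Ddt, Irs2 to Amotl1 and Ebf2, and Pik3r1 to Oplah and Hsp90b1. Among the 9 genes themselves, Insr and Sh2b2 had the most alike patterns (0.999) and Irs2 and Akt1 the most opposed (-0.994).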

How the data were processed

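By the study's methods, ribosomal RNA was depleted and mRNA was then enriched by poly-A selection. Per the labels and the study's methods, the authors used Trim Galore 0.6.7 for trimming and aligned to mm10. Values were deposited as unnormalized read counts, 1 table per library. STAR's gene counting and HTSeq are both named, and the annotation and strand setting are not given in the sources used here. Identifiers were matched to GENCODE M21 symbols and exon lengths (GRCm38). The 9 genes and all lists were chosen with earlier results of these data known. edgeR 4.0.16 (R 4.3.3) modelled the 9 libraries jointly with TMM scaling, and the script was tested on simulated data. Genes were called at an adjusted p (Benjamini-Hochberg, 17173 genes) under 0.05. Standard errors were derived from edgeR's test, as the size of the log2 fold change over the square root of the F statistic. Intervals of 1.96 standard errors are a normal approximation and are somewhat narrow for so few libraries. Named list genes are those with the largest called changes with MIZ, up to 4 in the main direction and 2 in the other. Likeness used genes of at least 5 CPM in a group and a prior count of 2. Ratios added 0.5 counts. Alternatives were other normalizations and filters, DESeq2 1.42.0, a replicate block, fits of 6 libraries, fits without mitochondrially encoded genes and fits without each library. A gene of the lists is not reported here. Other assays of the study were not analysed here.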

Additional observations from a re-analysis of the deposited data

How the results depend on the processing

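Under 18 alternative settings, the number of the 9 genes called stayed at 9 for MIZ against vehicle, 9 for vehicle against undifferentiated cells and 7 for MIZ against undifferentiated cells, and no gene of the 9 changed direction or its side of the adjusted p threshold. Log2 fold changes with MIZ against vehicle ranged from -3.36 to -3.09 for Tbc1d4 and from 0.57 to 0.76 for Akt1. Library totals alone moved the median of all genes to 0.16 for MIZ against vehicle and to -0.25 for vehicle against undifferentiated cells. Pik3cg, a PI3K subunit called higher with MIZ (0.78, adjusted p = 0.0256 from edgeR), lost its call in 6 settings. With the replicate number as a block, 9, 9 and 7 of the 9 genes were called, and 12020, 13162 and 11281 of all genes, against 12190, 13339 and 11505 without it. Same-numbered libraries did not deviate together (correlations -0.04 to 0.06), so the numbers were not taken to pair them. With 3 libraries per group, the exact permutation test of the ratios cannot go below 0.1.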
